A study of Mus musculus with 6 samples.

Results

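The genes described here are 10 lysosomal cathepsins and cystatins, taken by symbol from the 6 count tables: the cathepsin genes Ctsa, Ctsb, Ctsd, Ctsh, Ctsk, Ctsl and Ctsz, and the cystatin genes Cst3, Cst6 and Cstb. All 10 were found among the 22007 gene symbols of the series, and all 10 passed the filter on low counts. They were measured by RNA sequencing of whole corneas from male C57BL/6J mice in 2 groups of 3 libraries. The OFBI group (open-field blast injury) had been exposed once, awake and in the open, to a blast from 350 g of the explosive C-4 set off 3 m away, and its corneas were taken 12 months later. The Naive group carries the same 12-month label and no blast. Each library was a pool of corneas, and all 6 carried batch number 4. The series title names immune and matrix remodeling, and the question put to the 2 groups here is whether the lysosomal proteases and their inhibitors differed 12 months after the blast.

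Cathepsins are proteases that work mainly in the acid interior of lysosomes, where they degrade proteins delivered by endocytosis and autophagy. Most are cysteine proteases of the papain family (Ctsb, Ctsh, Ctsk, Ctsl and Ctsz here), while cathepsin D is an aspartic protease and cathepsin A a serine carboxypeptidase. Cystatins are small proteins that occupy the active-site cleft of the papain-like enzymes. They do not act on cathepsins A and D. Cystatin C (Cst3) and cystatin E/M (Cst6) are secreted, and cystatin B (Cstb) stays inside the cell. In cornea and other barrier tissues the balance between the enzymes and the inhibitors is known to bear on matrix turnover, antigen processing and epithelial differentiation.

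The shared chemistry of the members is visible in their coding sequences, and it is shown here because the rule chose the genes by name only. In the GENCODE transcripts, the 5 cysteine cathepsins each held 1 in-frame copy of the papain-family active-site block, which 9 of 21877 coding genes (0.0411%) held. Ctsa, Ctsd and the 3 cystatins held none. The 33 coding bases around it are given from the 5′ end, with the codon of the catalytic cysteine in capitals.
Ctsb: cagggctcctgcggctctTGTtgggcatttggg
Ctsh: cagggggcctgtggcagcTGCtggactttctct
Ctsk: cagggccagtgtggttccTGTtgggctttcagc
Ctsl: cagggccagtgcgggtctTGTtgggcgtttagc
Ctsz: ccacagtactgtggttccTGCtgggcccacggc
Of these 33 bases 11 were the same in all 5 genes. Ctsk and Ctsl were closest, with 28 identical bases, and Ctsz shared 17 to 21 with each of the others. The 3 cystatins each held 1 copy of the inhibitory-loop block, a degenerate pattern that 7.80% of coding genes held somewhere in frame. It is in capitals in the 33 bases below, and it encodes the loop that enters the active-site cleft.
Cst3: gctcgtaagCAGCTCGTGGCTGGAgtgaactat
Cst6: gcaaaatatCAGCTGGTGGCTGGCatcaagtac
Cstb: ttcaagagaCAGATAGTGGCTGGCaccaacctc

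Cathepsin H and cystatin E/M transcripts were lower after OFBI, cathepsin Z transcripts were higher than in Naive corneas, and the other 7 genes did not pass the test (edgeR quasi-likelihood test over 13941 genes, Benjamini-Hochberg adjusted p below 0.05). Ctsh lay at 30.9 ± 10.7 CPM (a gene's estimated counts scaled to a common library total, with TMM factors) after OFBI and 85.8 ± 5.26 CPM in Naive corneas (SD, n = 3), and Ctsz at 31.7 ± 20.6 and 8.07 ± 0.25 CPM. Cst6 had no count in any OFBI library. The 3 most abundant enzymes, Ctsd, Ctsl and Ctsb, did not pass. Of the 10 genes 1 was thus called higher and 2 lower, and over all genes tested 8.41% were called higher and 10.4% lower. With 10 genes, 1 and 2 calls do not set the cathepsins and cystatins apart from that background. DESeq2 called 1 of the 10 higher and 5 lower against 12.8% and 12.0% of all genes, limma-voom 0 and 2 against 7.31% and 8.95%, and edgeR with library size as the only scaling 0 and 5 against 6.21% and 14.6%. The median log2 fold change of the 10 genes was -0.42 with Cst6 at its bound, and that of all genes tested was -0.20.

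The libraries must be set beside these values first. The Naive libraries held 41971752 to 47809779 estimated counts and the OFBI libraries 1173472 to 3410476, so depth followed group and the 2 cannot be told apart. From the pattern of the values, about 4 deposited counts stand for 1 sequenced fragment. A floor of 3 fragments, or 12 counts, corresponds to between 0.237 and 0.264 CPM for the Naive libraries and between 3.71 and 11.2 CPM for the OFBI libraries. Markers of the cornea were present in both groups, with the epithelial keratin Krt12 at 25571 ± 2985 CPM after OFBI and 9999 ± 1117 CPM in Naive corneas (SD, n = 3). The 13 keratocyte markers summed to 5141 to 7247 CPM after OFBI and 1671 to 2212 CPM in Naive corneas. Of these 5 rose and 3 fell, where 8.41% and 10.4% of all genes tested did, and the median log2 fold change of the 13 was -0.28. The collagen genes Col1a1 and Col1a2, which made up most of the sum, had log2 fold changes of 2.23 and 1.66 (edgeR adjusted p = 0.0067 for both). Dcn, Chst5 and Ptgds fell, with log2 fold changes of -1.46, -2.29 and -1.63 (edgeR adjusted p = 0.0187, 0.0187 and 0.0391). Since whole tissue was sequenced, fewer cells of a type and less RNA per cell cannot be told apart. With library size as the only scaling, the median over all genes of the log2 fold change moved from -0.20 to -0.40.

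**Figure D1:**
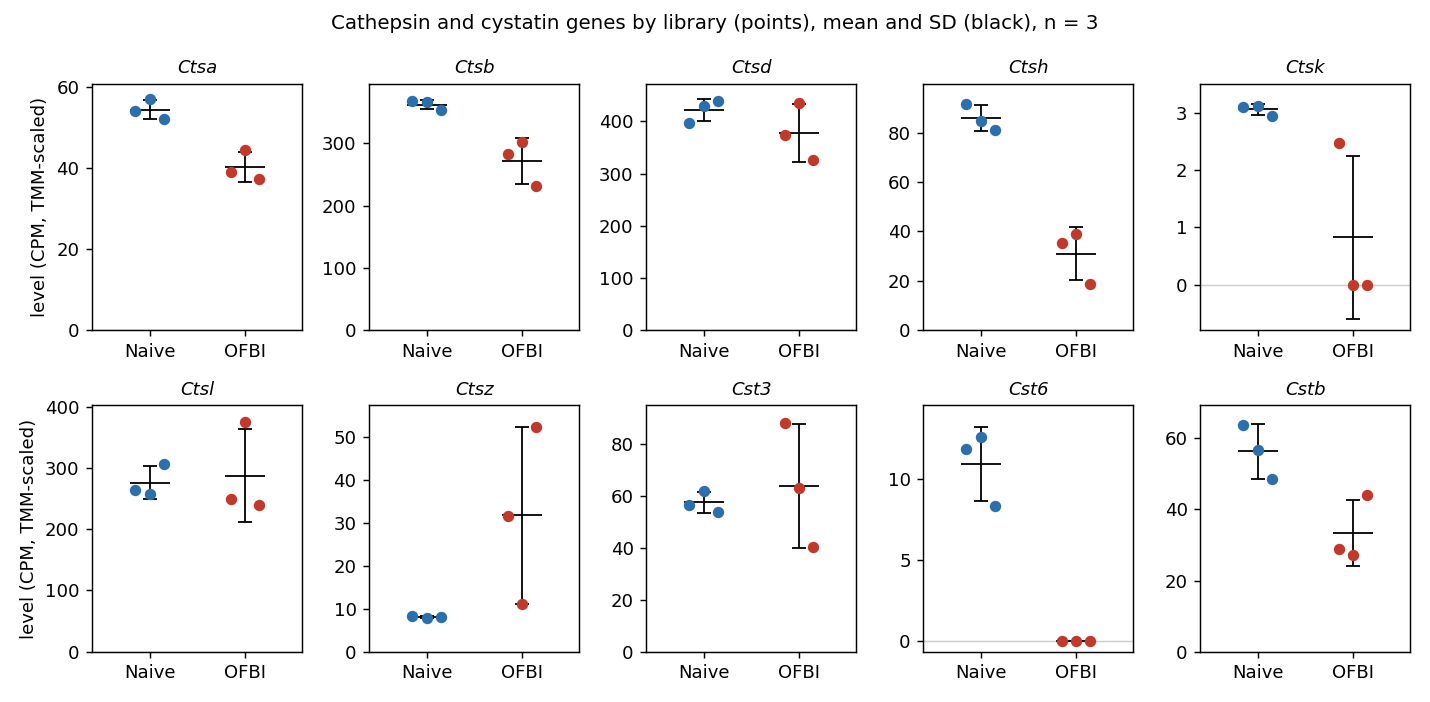
Level of each cathepsin and cystatin gene (y axis, TMM-scaled CPM from 0, or from below 0 where an error bar reaches there) in the 3 Naive (blue) and 3 OFBI (red) libraries, with the mean and SD in black. The Ctsh and Cst6 points of the OFBI libraries all lie below those of the Naive libraries, the Ctsz points all lie above them, and those of Ctsd, Ctsl and Cst3 overlap.

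Ctsh encodes cathepsin H, a cysteine protease that trims proteins from the amino end (chromosome 9, 90054152 to 90076089, GRCm38). It had 35.2, 38.7 and 18.7 CPM in OFBI replicates 1, 2 and 3, from 114, 121 and 20 estimated counts. The Naive replicates had 91.5, 84.7 and 81.1 CPM, from 4630, 3927 and 3682 counts. Every OFBI library lay below every Naive library, and the highest OFBI value was less than the lowest Naive value by more than the SD of either group. The difference on the log2 scale was -1.43 ± 0.27 (SE, edgeR adjusted p = 0.0190), or 2.70-fold lower. Without OFBI replicate 3, the shallowest library, it was -1.22 (edgeR adjusted p = 0.0053). Without Naive replicate 1, 2 or 3 the edgeR call was lost (adjusted p = 0.0899, 0.0951 and 0.0856).

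Cst6 encodes cystatin E/M, a secreted inhibitor of cathepsin L and of legumain that is known from stratified epithelia (chromosome 19, 5344705 to 5349574). It had 598, 584 and 378 estimated counts in the Naive replicates, or 11.8, 12.6 and 8.33 CPM. All 3 OFBI replicates had 0 counts. At the mean Naive level, OFBI replicates 1, 2 and 3 would have held 35.3, 34.1 and 11.7 counts. The sum of these is 81.0 counts, or about 20.3 fragments, and a count of 0 allows up to 12 counts over the group. Cst6 was therefore at least 6.75-fold lower in the OFBI group (edgeR adjusted p = 0.0147), a bound that covers counting error only. It shared this trait with many genes: of the 1446 genes that edgeR called lower, 742 were at 0 in all OFBI libraries. In OFBI replicate 3 alone, the expected count lay under the floor of 12, so a difference in that library was not detectable. The edgeR call was lost without Naive replicate 1, 2 or 3 (adjusted p = 0.0807, 0.0890 and 0.0766). Markers of the corneal epithelium went the other way in sum. The 11 measured summed to 62186 to 81724 CPM after OFBI and 31335 to 32095 CPM in Naive corneas. Of these markers 5 rose and 1 fell, where 8.41% and 10.4% of all genes tested did, and none was at 0. Their part in the Cst6 result was not tested.

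The 3 genes whose log2(CPM + 1) values over the 6 libraries were most like those of Cst6, out of 10410 candidates whose average reached 5 CPM, were Aff4, Rgl1 and Dhcr7. Their Pearson r was 1.00 to 2 decimals for each. None was at 0 after OFBI: Aff4 had 195 and 301 CPM in OFBI and Naive corneas, Rgl1 had 7.63 and 12.5 CPM, and Dhcr7 had 40.8 and 75.5 CPM. With 6 libraries in 2 groups that also differ in depth, the likeness describes a shared step between the groups.

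Ctsz encodes cathepsin Z, a carboxypeptidase that is abundant in cells of the immune system (chromosome 2, 174427493 to 174439039). It had 31.5, 11.2 and 52.4 CPM in OFBI replicates 1, 2 and 3, from 102, 35 and 56 estimated counts. The Naive replicates had 8.36, 7.89 and 7.95 CPM, from 423, 366 and 361 counts. The OFBI libraries all lay above the Naive libraries, but they spread widely, with a coefficient of variation of 64.9% against 3.13% in Naive corneas. OFBI replicate 2 lay closest to the Naive libraries. The difference on the log2 scale was 1.94 ± 0.53 (SE, edgeR adjusted p = 0.0468), or 3.82-fold higher. Leaving out 1 library kept the direction each time and the call once, without OFBI replicate 2 (2.31, edgeR adjusted p = 0.0137). Without OFBI replicate 3 the log2 fold change was 1.39 (edgeR adjusted p = 0.0528), without OFBI replicate 1 it was 1.86 (adjusted p = 0.0981), and without Naive replicate 1, 2 or 3 it was 2.00, 1.97 and 1.97 (adjusted p = 0.170, 0.180 and 0.176), where edgeR called 106, 0 and 104 genes in all. It was also lost with library size as the only scaling (adjusted p = 0.0599), with limma-voom (adjusted p = 0.0654) and after removing a trend with GC content and length (1.51, adjusted p = 0.0796 by edgeR), and DESeq2 called it (adjusted p = 0.0039).

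A share within a library does not depend on scaling. Ctsz made up 5.25%, 1.54% and 9.67% of the summed counts of the 5 cysteine cathepsins in OFBI replicates 1, 2 and 3, beside 1.14%, 1.10% and 1.06% in Naive replicates 1, 2 and 3. Exact 95% binomial intervals on fragments, which cover counting error only, were 3.52% to 7.74%, 0.727% to 2.99% and 5.38% to 15.7% after OFBI. They ran from 0.849% to 1.38% over the Naive libraries. OFBI replicates 1 and 3 thus lay above every Naive interval, and the interval of OFBI replicate 2 took in the Naive values.

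The summed lymphocyte markers followed the order of Ctsz over the OFBI libraries. With only 3 OFBI libraries a shared order shows little, and the part of these markers in the rise of Ctsz was not tested. Summed over 14 lymphocyte markers, OFBI replicates 1, 2 and 3 held 103, 47.7 and 312 CPM and the Naive libraries 10.6 to 11.7 CPM, so replicate 3 was highest and replicate 2 lowest, as for Ctsz. Single markers did not all keep this order. Cd2, an adhesion molecule of T cells, had 18.5, 12.2 and 64.5 CPM in OFBI replicates 1, 2 and 3 and 1.09 to 1.63 CPM in Naive corneas. Zap70, which acts downstream of the T cell receptor, had 5.56, 2.88 and 3.74 CPM and 0.323 to 0.485 CPM. The OFBI values of Zap70 came from 18, 9 and 4 estimated counts, so replicates 2 and 3 lay under the floor of 12 counts. The B cell markers Cd79a and Ms4a1 were at 0 in all OFBI libraries and did not pass the filter on low counts.

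The 21 hepatocyte markers summed to 182, 209 and 1163 CPM after OFBI, with replicate 2 above replicate 1, unlike Ctsz, and to 31.7 to 44.2 CPM in Naive corneas. Of these 10 passed the filter, most with Naive levels near 0, so that the number called says little. Alb, the serum albumin gene, had 60.9, 102 and 644 CPM after OFBI and 0.604 to 4.14 CPM in Naive corneas, Apob had 15.5, 7.68 and 44.0 CPM and 0.079 to 0.441 CPM, and Cyp2c29 was at 0 in every library. Of those that passed, Apob, Apoa1, Fgg, Tat and Serpina1b had the order of Ctsz, and Alb, Mup20, Mat1a, Cps1 and Ttr did not. Several of these orders rest on few counts and are uncertain. OFBI replicates 1 and 2 had 17 and 16 estimated counts of Apoa1, 8 and 5 of Tat, and 8 and 12 of Mup20. The 18 macrophage markers did not separate the groups in sum, with 206 to 323 CPM after OFBI and 251 to 278 CPM in Naive corneas. Itgam had the highest mean of them in both groups, 94.8 CPM after OFBI and 150 CPM in Naive corneas. The sum thus rests largely on Itgam and can hide opposite moves of other markers. Of all genes tested 8.41% were called higher, and of 16 macrophage markers tested 4 rose and 12 did not pass. Among those that rose, the complement chains C1qa and C1qb had 15.8, 15.4 and 17.8 CPM and 16.1, 16.0 and 11.2 CPM in OFBI replicates 1, 2 and 3. The order of C1qa was that of Ctsz, within a narrow range, and so was that of Cx3cr1, with 5.87, 4.80 and 13.1 CPM. Those of C1qb and of C1qc, which rose as well, were not.

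**Figure D2:**
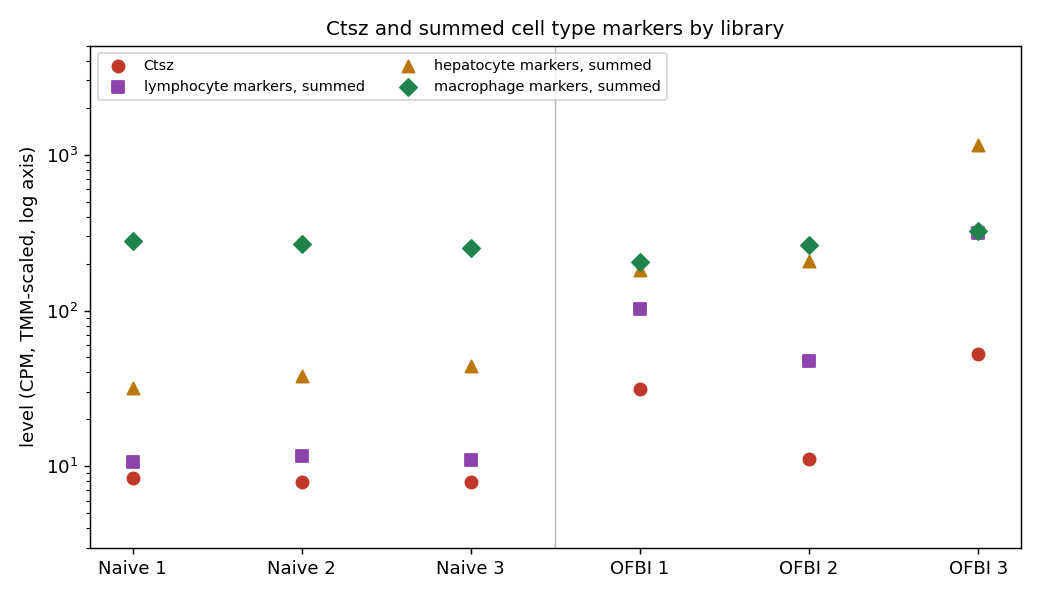
Level of Ctsz and summed levels of lymphocyte, hepatocyte and macrophage markers (y axis, TMM-scaled CPM, log axis) in each library (x axis). Ctsz and the lymphocyte sum are both highest in OFBI replicate 3, lower in replicate 1 and lowest in replicate 2 among the OFBI libraries. The hepatocyte and macrophage sums are also highest in OFBI replicate 3, and the macrophage sums of the groups overlap.

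The abundant endopeptidases showed no called difference. Ctsd, the aspartic protease cathepsin D that starts much of lysosomal protein breakdown (chromosome 7, 142375911 to 142388038), had 374, 435 and 325 CPM in the OFBI replicates and 398, 430 and 439 CPM in the Naive replicates. The groups overlapped, and the log2 fold change was -0.16 with a 95% interval of -0.50 to 0.18 (edgeR adjusted p = 0.498). Ctsl, the endopeptidase cathepsin L (chromosome 13, 64359337 to 64370890), had 249, 375 and 239 CPM after OFBI and 265, 257 and 306 CPM in Naive corneas. OFBI replicate 2 was the highest and OFBI replicate 3 the lowest of the 6 libraries. The log2 fold change was 0.06, with an interval of -0.41 to 0.54 (edgeR adjusted p = 0.862), and its sign turned with library size only and without OFBI replicate 2. For both genes the intervals leave out a 2-fold change in either direction.

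Ctsb and Ctsa lay lower after OFBI by less than the test could call. Ctsb, the cysteine protease cathepsin B that cuts both within proteins and from their carboxyl end (chromosome 14, 63122462 to 63145923), had 283, 303 and 231 CPM in the OFBI replicates and 368, 366 and 353 CPM in the Naive replicates. The groups did not overlap, and the log2 fold change was -0.41 with an interval of -0.74 to -0.08 (edgeR adjusted p = 0.0856). Ctsa, the carboxypeptidase that also protects lysosomal neuraminidase and beta-galactosidase (chromosome 2, 164832873 to 164841032), had 39.0, 44.5 and 37.4 CPM after OFBI and 54.3, 57.0 and 52.2 CPM in Naive corneas. Its groups did not overlap either, with a log2 fold change of -0.43, an interval of -0.85 to -0.01 and an edgeR adjusted p of 0.141. With library size as the only scaling both genes were called lower (log2 fold changes of -0.61 and -0.63, edgeR adjusted p = 0.0293 and 0.0455), and DESeq2 called both lower as well (adjusted p = 0.0089 and 0.0421). Set against the median of all genes, the changes of Ctsb and Ctsa were -0.21 and -0.23.

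Ctsk encodes cathepsin K, the collagen-degrading protease known from osteoclasts and fibroblasts (chromosome 3, 95499256 to 95509362), and it was at the limit of detection. It had 157, 145 and 134 estimated counts in the Naive replicates, or 3.10, 3.13 and 2.95 CPM. The OFBI replicates had 8, 0 and 0 counts. At the Naive level the 3 OFBI libraries together would have held 22.7 counts, or 5.68 fragments, where about 2 fragments were seen. The ratio was 0.352 with an exact 95% Poisson interval of 0.0426 to 1.27. This interval takes in both no change and a large fall, so no difference was established (edgeR adjusted p = 0.345). Of 8 osteoclast markers 3 were tested and none passed (edgeR, 0 at an unadjusted p below 0.05), and Ocstamp, Dcstamp, Calcr and Oscar were at 0 after OFBI, Oscar in Naive corneas too. Only without OFBI replicate 1, when all OFBI counts were 0, did edgeR, DESeq2 and limma-voom call it lower.

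**Figure D3:**
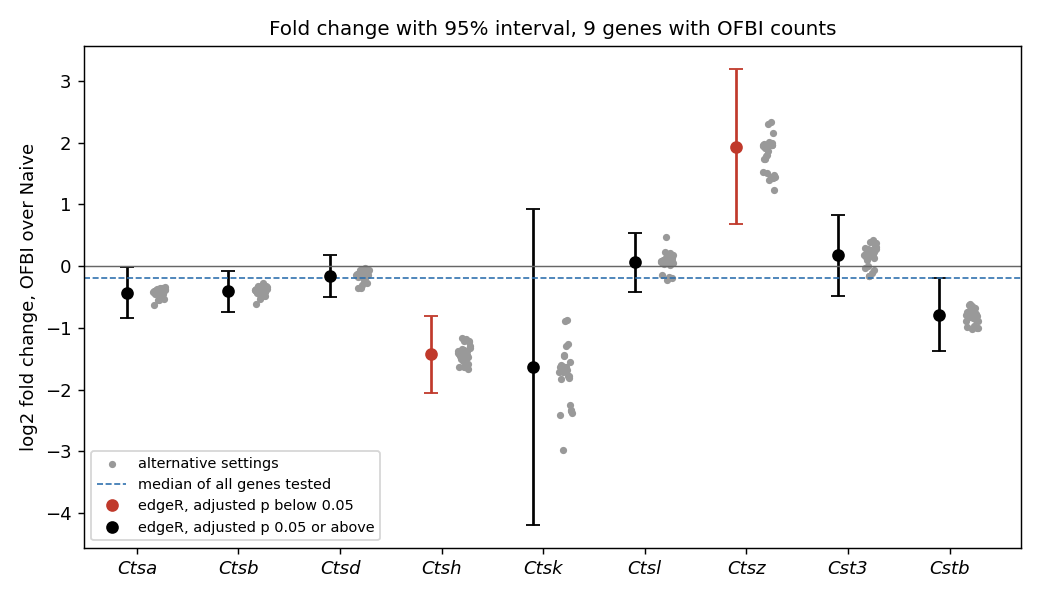
Log2 fold change of OFBI over Naive (y axis) for the 9 genes with OFBI counts, as the edgeR estimate with its 95% interval (red where the adjusted p was below 0.05, black otherwise) and as grey points for the alternative settings. Ctsh lies below 0 and Ctsz above 0 in every setting drawn, while the grey points of Ctsl and Cst3 fall on both sides of 0; the dashed line is the median of all genes, -0.20.

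Of the other 2 inhibitors, neither passed. Cst3, which encodes cystatin C, the main secreted cystatin of body fluids (chromosome 2, 148871722 to 148875692), had 87.8, 63.1 and 40.2 CPM in the OFBI replicates and 56.4, 61.9 and 53.9 CPM in the Naive replicates. The OFBI values enclosed the Naive values, and the log2 fold change was 0.17 with an interval of -0.48 to 0.82 (edgeR adjusted p = 0.714). Its sign turned without OFBI replicate 1, with library size only and with a GC and length trend removed. Cstb, which encodes the intracellular cystatin B (chromosome 10, 78425669 to 78427622), had 28.7, 27.2 and 44.0 CPM after OFBI and 63.8, 56.6 and 48.5 CPM in Naive corneas. The groups did not overlap, with OFBI replicate 3 closest to the Naive libraries. The log2 fold change of Cstb was -0.79 with an interval of -1.38 to -0.20 (edgeR adjusted p = 0.0701). It was called lower without OFBI replicate 3 (-1.02, edgeR adjusted p = 0.0131), by DESeq2 (adjusted p = 0.0189), with library size only (edgeR adjusted p = 0.0319) and with counts divided by 4 (edgeR adjusted p = 0.0370).

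Counted by overlap alone, 6 of the 10 genes lay lower in every OFBI library than in every Naive library (Ctsa, Ctsb, Ctsh, Ctsk, Cst6 and Cstb) and 1 lay higher (Ctsz). Ctsk is counted here although its Naive level lies under the floor of every single OFBI library, so its lower position shows no difference. Over all genes tested, 29.9% lay wholly lower and 16.4% wholly higher.

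The ratio of enzyme to inhibitor transcripts overlapped between the groups. The summed counts of the 5 cysteine cathepsins divided by those of the 3 cystatins gave 5.15, 8.06 and 6.43 for OFBI replicates 1, 2 and 3, beside 5.57, 5.48 and 6.79 for the Naive replicates. With each gene divided by its transcript length the ratios were 1.54, 2.41 and 1.82 after OFBI and 1.58, 1.58 and 1.98 in Naive corneas. OFBI replicate 1 was the lowest and OFBI replicate 2 the highest of the 6 libraries on both scales. The 10 genes together made up 1130, 1298 and 989 CPM in the OFBI libraries and 1319 to 1354 CPM in the Naive libraries.

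**Figure D4:**
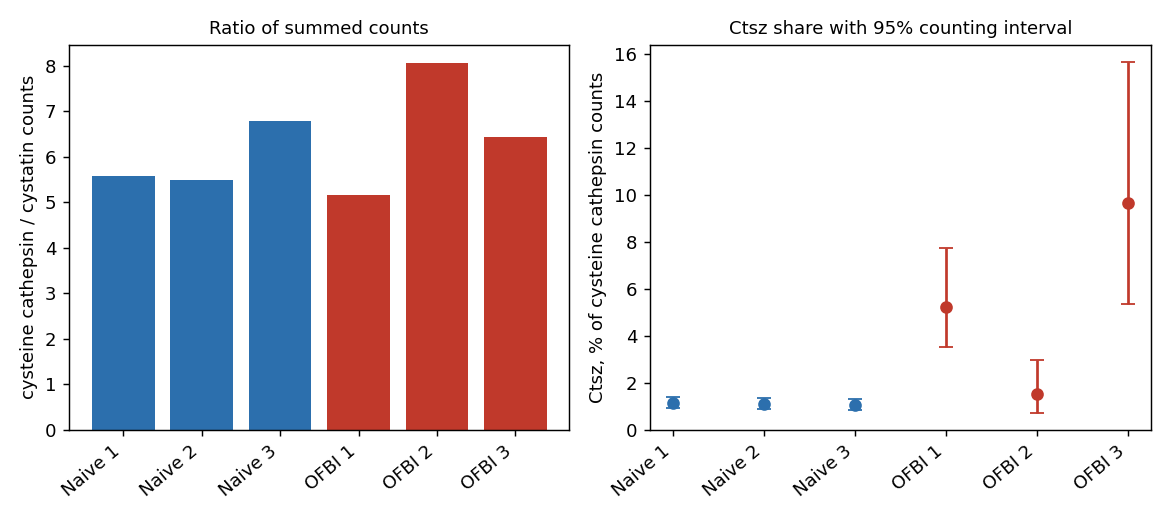
Left, the ratio of summed cysteine cathepsin counts to summed cystatin counts (y axis, from 0) in each library, where the Naive bars, 5.48 to 6.79, lie within the range of the OFBI bars, 5.15 to 8.06. Right, the percentage of cysteine cathepsin counts that came from Ctsz with its exact 95% counting interval, where OFBI replicates 1 and 3 lie above every Naive interval and OFBI replicate 2 does not.

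Within the summed counts of the 10 genes, the composition was led by the same 3 enzymes in both groups. Ctsd took 33.2 ± 0.33% after OFBI and 31.6 ± 1.24% in Naive corneas, Ctsb 23.9 ± 0.98% and 27.1 ± 0.91%, and Ctsl 25.0 ± 3.52% and 20.6 ± 1.77% (SD, n = 3). Ctsh took 2.67 ± 0.67% and 6.42 ± 0.48% (SD, n = 3), with no overlap between the groups. Cst6 fell from 0.817 ± 0.18% in Naive corneas to 0% (SD, n = 3).

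Levels can be ordered between genes only per length, here as CPM per kilobase of the principal GENCODE transcript. In Naive corneas the order was Ctsd, Ctsl, Cstb, Ctsb, Cst3, Ctsh, Ctsa, Ctsz, Cst6 and Ctsk, from 199 ± 10.2 to 2.02 ± 0.06 CPM per kilobase (SD, n = 3), and no neighbours in this order overlapped in range. After OFBI the order was Ctsd, Ctsl, Cst3, Ctsb, Cstb, Ctsz, Ctsh, Ctsa, Ctsk and Cst6. There Ctsd and Ctsl overlapped, with 153 to 205 and 121 to 190 CPM per kilobase, as did Cst3 with Ctsb, Ctsb with Cstb, Ctsz with Ctsh, Ctsh with Ctsa, and Ctsk with Cst6. Ctsz thus stood at 5.60 ± 0.18 CPM per kilobase (SD, n = 3) in Naive corneas, below Ctsa and Ctsh, and at 21.9, 7.78 and 36.3 in OFBI replicates 1, 2 and 3, where Ctsh had 21.8, 24.0 and 11.6. The lengths matter most for Cst6, whose annotated transcript has 3951 bases for a coding sequence of 447 bases.

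Several members share exonic bases with other genes, and the strand setting of the counting is not given in the sources used here. Ctsb shares 774 bases with the antisense gene Fdft1, and Ctsa shares 495 with Pltp and 324 with Neurl2, both antisense. Ctsz shares 10 bases with Nelfcd. Reads in these stretches cannot be assigned with certainty if strand was not used. The longest stretch is that of Ctsl with the antisense gene Gm47123, 1742 bases beside a Ctsl transcript of 1971. Ctsl also shares 395 bases with the pseudogene Gm49230, and Ctsd 808 with Gm49369, both on the same strand. These 3 symbols were not found in the count tables used here, and how reads in these stretches were assigned is not known. Ctsh, Ctsk, Cst3, Cst6 and Cstb share none in this annotation.

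Among 7 other cathepsin-related genes tested, of a list of 10, Ctsw rose, Ctso fell and the remaining 5 missed the threshold. Their median log2 fold change was -0.05, and over all genes tested 8.41% were called higher and 10.4% lower. Ctsw, the cathepsin of T and natural killer cells, had 5, 12 and 24 estimated counts in OFBI replicates 1, 2 and 3, against 10, 8 and 4 in Naive replicates 1, 2 and 3, which edgeR fitted as a log2 fold change of 5.76 ± 1.15 (SE, adjusted p = 0.0222). In CPM, OFBI replicate 3 was highest with 22.4, and OFBI replicates 1 and 2 had 1.55 and 3.84. Ctso, a cysteine cathepsin, had 17.3 ± 4.12 CPM after OFBI and 36.4 ± 4.00 CPM in Naive corneas (SD, n = 3), or -1.11 ± 0.27 on the log2 scale (SE, edgeR adjusted p = 0.0334). Ctss, the cathepsin of antigen-presenting cells, had 30.5 ± 3.40 and 24.9 ± 3.69 CPM (SD, n = 3, edgeR adjusted p = 0.454). Legumain, Lgmn, the asparaginyl protease that cystatin E/M inhibits, had 89.3 to 131 CPM after OFBI and 96.1 to 125 CPM in Naive corneas (edgeR adjusted p = 0.892).

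Of 5 other cystatin-family genes tested, of a list of 21, 2 fell and none rose, with a median log2 fold change of -1.55. Over all genes tested 10.4% were called lower and 8.41% higher, and 5 genes are too few to set against these shares. The gene at the median, Stfa1, had 0, 8 and 4 estimated counts in OFBI replicates 1, 2 and 3. The stefin A genes Csta1 and BC100530, intracellular cystatins, fell. Csta1 had 8.35, 13.4 and 11.2 CPM in the OFBI replicates and 52.1, 42.7 and 41.4 CPM in the Naive replicates, and BC100530 had 14.8, 25.0 and 4.68 CPM and 85.2, 94.7 and 108 CPM. Their log2 fold changes were -2.05 (SE 0.28, edgeR adjusted p = 0.0099) and -2.59 (SE 0.44, adjusted p = 0.0155). Stefin A genes are near copies of each other, so reads may have been divided among the copies and both values are uncertain. No gene of this list had an unadjusted p below 0.05 in the upward direction by edgeR, and 2 had it in the downward direction. Of 8 serpins and other protease inhibitors tested, A2m and Lxn fell and Ctla2a rose, with a median of -0.91. These counts too are read against the 10.4% of all genes called lower and the 8.41% called higher. A2m, a broad protease trap, changed by -0.82 ± 0.16 on the log2 scale (SE, edgeR adjusted p = 0.0199). Ctla2a, a cathepsin L inhibitor of the mouse, had 5, 4 and 5 estimated counts in the OFBI libraries and 23, 8 and 12 in the Naive libraries, and its log2 fold change of 2.86 (SE 0.68, adjusted p = 0.0322) rests on these few counts.

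The lysosome that houses these enzymes did not move as 1 group. Its counts are read against the 10.4% of all genes called lower and the 8.41% called higher. Of 39 hydrolases and cofactors tested 5 fell, 1 rose and 33 missed the threshold, and the median log2 fold change was -0.36. The gene that rose was Psap, the saposin precursor, with a log2 fold change of 0.66 (edgeR adjusted p = 0.0426). Of 21 lysosomal membrane genes 4 fell and 2 rose, with a median of -0.38. Lmbrd1, part of cobalamin export, had a log2 fold change of -1.34, and the tetraspanin gene Cd63 one of 1.22 (edgeR adjusted p = 0.0115 and 0.0187). Of 18 subunits of the proton pump that acidifies lysosomes 3 fell and none rose, with a median of -0.30, and Atp6v1e1 and Atp6v0e had log2 fold changes of -1.01 and -1.67 (edgeR adjusted p = 0.0234 and 0.0245). Of 22 genes of enzyme sorting and of the lysosomal transcription program 2 rose, the clathrin adaptor genes Gga1 and Ap1g1 (1.00 and 0.50, edgeR adjusted p = 0.0107 and 0.0466), none fell, and the median was -0.19. The medians of these 4 lists ran from -0.38 to -0.19, beside -0.20 for all genes tested.

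Tfeb, the transcription factor that binds the CLEAR element of lysosomal genes, had 45.4, 40.3 and 38.3 CPM in the OFBI replicates and 22.9, 18.7 and 29.8 CPM in the Naive replicates. The groups did not overlap, and its log2 fold change of 0.80 (SE 0.25) had an edgeR adjusted p of 0.0673. Tfe3 and Mitf, from the same list, had log2 fold changes of -0.17 and -0.06 (edgeR adjusted p = 0.634 and 0.973). Mitf had only 16, 20 and 0 estimated counts in OFBI replicates 1, 2 and 3. The windows around the start sites of Ctsz, called higher, and of Ctsd and Ctsa, which were not, are printed because the core of that element, CACGTG, is present in part of the members. RefSeq windows of 300 bases on GRCm38.p6, 250 before the start and 50 after it, were matched for 6 of the 10 genes, Ctsa with 2 starts. The letters CACGTG, which read the same on both strands, occur in 7.15% of 32851 such windows and are in capitals, and the longer TCACGTGA that contains them occurs in 0.974%.
Ctsz, chr2:174438990-174439289, minus strand: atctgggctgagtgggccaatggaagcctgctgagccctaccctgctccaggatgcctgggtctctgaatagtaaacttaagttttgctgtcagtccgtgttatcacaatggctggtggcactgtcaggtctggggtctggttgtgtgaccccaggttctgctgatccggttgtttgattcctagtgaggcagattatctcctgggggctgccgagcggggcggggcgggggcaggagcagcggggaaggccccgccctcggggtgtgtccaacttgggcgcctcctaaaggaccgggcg
Ctsd, chr7:142387778-142388077, minus strand: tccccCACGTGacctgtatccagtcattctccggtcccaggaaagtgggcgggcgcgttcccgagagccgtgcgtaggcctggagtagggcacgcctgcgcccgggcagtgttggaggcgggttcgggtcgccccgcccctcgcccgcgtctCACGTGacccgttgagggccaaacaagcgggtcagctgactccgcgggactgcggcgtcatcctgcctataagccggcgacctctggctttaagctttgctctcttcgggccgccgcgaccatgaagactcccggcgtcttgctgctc
Ctsa, chr2:164833523-164833822, plus strand: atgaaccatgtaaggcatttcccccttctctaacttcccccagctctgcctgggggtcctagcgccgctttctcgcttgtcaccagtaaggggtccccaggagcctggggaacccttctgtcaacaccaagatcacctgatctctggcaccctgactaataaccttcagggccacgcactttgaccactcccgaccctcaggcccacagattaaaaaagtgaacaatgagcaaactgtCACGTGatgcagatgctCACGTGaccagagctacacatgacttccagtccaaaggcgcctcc
The Ctsd window held CACGTG 2 times, beginning 245 and 98 bases before the start, and TCACGTGA once. The Ctsa window held both patterns 2 times, at 12 bases before the start and 5 after it. The window of Ctsl held CACGTG once, and those of Ctsz, Ctsk, Cst3 and the other Ctsa start held none. A match is a description of letters, and no match says only that these letters are not in the window.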

How the data were processed

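The authors deposited 1 table per library of estimated counts per gene. These are whole numbers with library totals that differ, a unit inferred from the values, in which 39.4% to 50.5% of the values from 1 to 40 were multiples of 4. StringTie, HISAT2, DESeq2 and FastQC are listed in the submitters' processing notes beside the build GRCm38, without versions or roles. Per the labels' protocols, a stranded kit was used on 2 µg of RNA. Rows sharing a symbol were summed (64 rows, 31 symbols). In no library did the 26 date-named rows exceed 0.148% of the counts.

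The test was edgeR 4.0.16 under R 4.3.3 on all 13941 genes passing filterByExpr (TMM, quasi-likelihood, a model of group alone, two-sided, Benjamini-Hochberg threshold 0.05), a procedure tested on simulated data. The simulation planted changes only in genes more abundant than Ctsz, Cst6 and Ctsk and did not copy the 4 counts per fragment, so it does not cover these 3 genes. The SE is the size of the log2 fold change over the square root of F, and intervals are 95%. CPM values are TMM-scaled. Lengths, coordinates (1-based, whole gene) and coding sequences come from GENCODE M21, which matched 21710 symbols and may not be the authors' release. The pools are described as biological replicates, and p-values measure the spread between these pools. No pair of libraries agreed within sampling noise (mean chi-square per gene 4.43 to 15.4 on counts divided by 4, where sampling alone gives about 1).

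Named were all 10 members, the 2 genes with the smallest p in each related or marker list, and the 3 genes most like the member with the smallest p. Psap, Lxn, Stfa1, Ctss, Lgmn, Tfeb, Tfe3, Mitf, the markers at 0 and the other marker genes were named after their values were seen. Some genes that this rule selects are not reported here. Members and lists were chosen with earlier results of these data known. Alternatives were DESeq2 1.42.0, limma-voom 3.58.1, other scalings and filters, a replicate block, thinning, counts divided by 4, a GC and length trend fitted on genes of at least 5 CPM, dropping the 10 genes with the highest counts, and omitting each library in turn. DESeq2 and limma-voom without each library were added after the data were seen.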

Additional observations from a re-analysis of the deposited data

How the results depend on the processing

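With all 6 libraries edgeR called 1 of the 10 genes higher and 2 lower. The number higher became 0, with Ctsz no longer passing, with limma-voom, with library size only, with no filter, with the replicate block, with either thinning and with the GC and length trend removed; the unadjusted p of Ctsz in these ran from 0.0081 to 0.0247. DESeq2 called 1 higher and 5 lower, and library size only gave 5 lower. The deviations of same-numbered libraries of the groups had r of -0.0027, -0.0175 and 0.0078, and those of libraries with different numbers had r of -0.0144 to 0.0219. At the OFBI depth counting noise can hide a shared deviation, so these values cannot exclude a pairing. The replicate block called 1 gene lower, Ctsh, with 793 genes called in all against 2619. Leaving out 1 library gave 0 to 1 genes higher and 0 to 5 lower over edgeR, DESeq2 and limma-voom. Without Naive replicate 1, 2 or 3 edgeR called none of the 10, although 3, 3 and 4 of them reached 0.05 before adjustment; the calls among the 10 were 3, 2 and 3 by DESeq2 and 2, 2 and 3 by limma-voom. edgeR then called 106, 0 and 104 genes in all (2611, 2441 and 2615 at an unadjusted p below 0.05), and the cause was not tested. The log2 fold change of Cst3, 0.17, was -0.025 with library size only, -0.16 with the trend removed, and -0.15, -0.10 and -0.059 without OFBI replicate 1 by edgeR, DESeq2 and limma-voom, with -0.15 to 0.38 by edgeR over all left-out libraries. That of Ctsl, 0.06, was -0.14 with library size only and -0.22, -0.18 and -0.20 without OFBI replicate 2 by the same tools, and 0.47 with the trend removed (edgeR adjusted p = 0.0810), with -0.22 to 0.18 by edgeR over all left-out libraries. Over 31 alternatives Ctsh was called in 26, Cst6 in 27 and Ctsz in 13, with log2 fold changes of -1.67 to -1.17 for Ctsh and 1.23 to 2.33 for Ctsz. No fold of Ctsk is given without OFBI replicate 1, when its OFBI counts were 0, and it was not tested with all libraries thinned. OFBI depth limits Ctsk, Cst6 and Ctsw, which rest on few fragments.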
